A study of Mus musculus with 6 samples.

Results

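The genes described here take up and trap the fatty acids that fuel the heart: lipoprotein lipase and its partners, a lipoprotein receptor, and the proteins that carry fatty acids into the heart muscle cell, bind them and activate them. They are Lpl, Gpihbp1, Lmf1, Angptl4, Vldlr, Cd36, Slc27a1, Fabp3 and Acsl1, 9 genes taken by name from a table of 46450 gene symbols. All 9 were in the table and all 9 passed the filter that left 12437 genes for testing, a value of at least 1 CPM in at least 3 libraries. RNA came from heart muscle cells (cardiomyocytes) isolated from C57BL/6 mice aged 3 months, 3 wild type libraries and 3 TFEB-/- libraries. TFEB switches on genes of lysosomes and autophagy. How the TFEB-/- allele was made, in which cells it acts, the sex of the mice and whether the libraries stem from different animals are not given, so p-values measure the spread between these libraries.

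The heart burns mainly long-chain fatty acids. Most of them arrive as triglyceride in lipoprotein particles or as free acid on albumin. Lipoprotein lipase is made by the muscle cell, matured in the endoplasmic reticulum by LMF1, and carried by GPIHBP1 across the capillary endothelium, where it splits triglyceride on the vessel wall; ANGPTL4 inactivates the enzyme. The VLDL receptor holds triglyceride-rich particles at the cell surface. CD36 and FATP1 (Slc27a1) help fatty acids across the membrane, FABP3 binds them in the cytosol, and ACSL1 joins them to coenzyme A so that they can be oxidized or stored.

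Values are taken to be CPM, read counts scaled to a common library total, from the name under which they were deposited. They were deposited rounded to whole numbers, so a value is known to within 0.5 CPM on either side. The depth of each library is unknown and its counting error with it. Each library summed to between 999505 and 999655 CPM. Transcripts of the mitochondrial genome took 36.4% ± 7.28 (SD, n = 3) of the wild type and 25.9% ± 4.06 (SD, n = 3) of the TFEB-/- libraries, and over all tested genes the log2 fold change had a median of 0.24 on the deposited scale. It was 0.0053 when each library was divided by its median ratio to the geometric mean of all 6, here called median-ratio scaling, so both scales are given. Tfeb was at 17, 30 and 23 CPM in wild type, against 6, 5 and 7 CPM in TFEB-/- (adjusted p = 0.0267 by limma), lower in every library labelled TFEB-/-. This call was lost when any single library other than wild type 1 was left out (adjusted p of 0.0589 to 0.109), and with median-ratio scaling it passed with all libraries and without any 1 of them (0.00908 to 0.0312). Summed cardiomyocyte markers (12 of 12 present) ran from 63744 to 85198 CPM in wild type and from 77858 to 98695 CPM in TFEB-/-. Summed endothelial markers (12 of 12) ran from 372 to 475 and from 363 to 432 CPM, fibroblast markers (8 of 8) from 102 to 125 and from 117 to 157 CPM, mural markers (7 of 7) from 238 to 279 and from 291 to 385 CPM, and macrophage markers (8 of 8) from 18 to 26 and from 38 to 46 CPM. Of the adipocyte markers, Plin1, Lep and Retn were at 0 in all libraries and the 6 summed to at most 4 CPM. The macrophage sum was higher in every TFEB-/- library than in any wild type library. So was the mural sum, through Acta2 alone: 5 of the 7 mural markers had a log2 fold change below 0, and without Acta2 the sum ran from 161 to 195 CPM in wild type and from 130 to 171 CPM in TFEB-/-. Of the 12 endothelial markers 10 had a log2 fold change below 0, with a median of −0.14, and limma called 0 of them. In such bulk samples fewer cells of a type and less RNA per cell cannot be told apart.

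Lpl and Cd36 had the largest log2 fold changes among the 9 genes. Each was lower in every TFEB-/- library than in any wild type library, at 0.615 and 0.609 times the wild type mean. Neither passed the threshold, an adjusted p below 0.05 over all genes, on the deposited scale, and Lpl passed with median-ratio scaling. On the deposited scale limma called 0 of the 9 genes higher and 0 lower, against 3.92% of all tested genes called higher and 0.523% called lower. At an unadjusted p below 0.05, 2 of the 9 were lower (Cd36 and Lpl), against 2.3% of all genes, and 0 higher, against 21.1%. Groups did not overlap, with TFEB-/- lower, for 3 of the 9 (Cd36, Lpl and Acsl1), against 2.28% of all genes, and with TFEB-/- higher for 0, against 21.2%. The log2 fold change was below 0 in 8 of the 9, against 24.8% of all genes. The median over the 9 was −0.13, against 0.24 over all genes, and 8 of the 9 lay below the median of all genes. Lists of related genes, described below, shared this in part. Below it lay 11 of 13 tested genes of fatty acid transport, 9 of 10 of the carnitine shuttle and 14 of 17 other PPAR targets. So did 7 of 10 PPAR factors and partners, 3 of 11 genes of lipase maturation and 4 of 12 lipoprotein receptors.

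**Figure D1:**
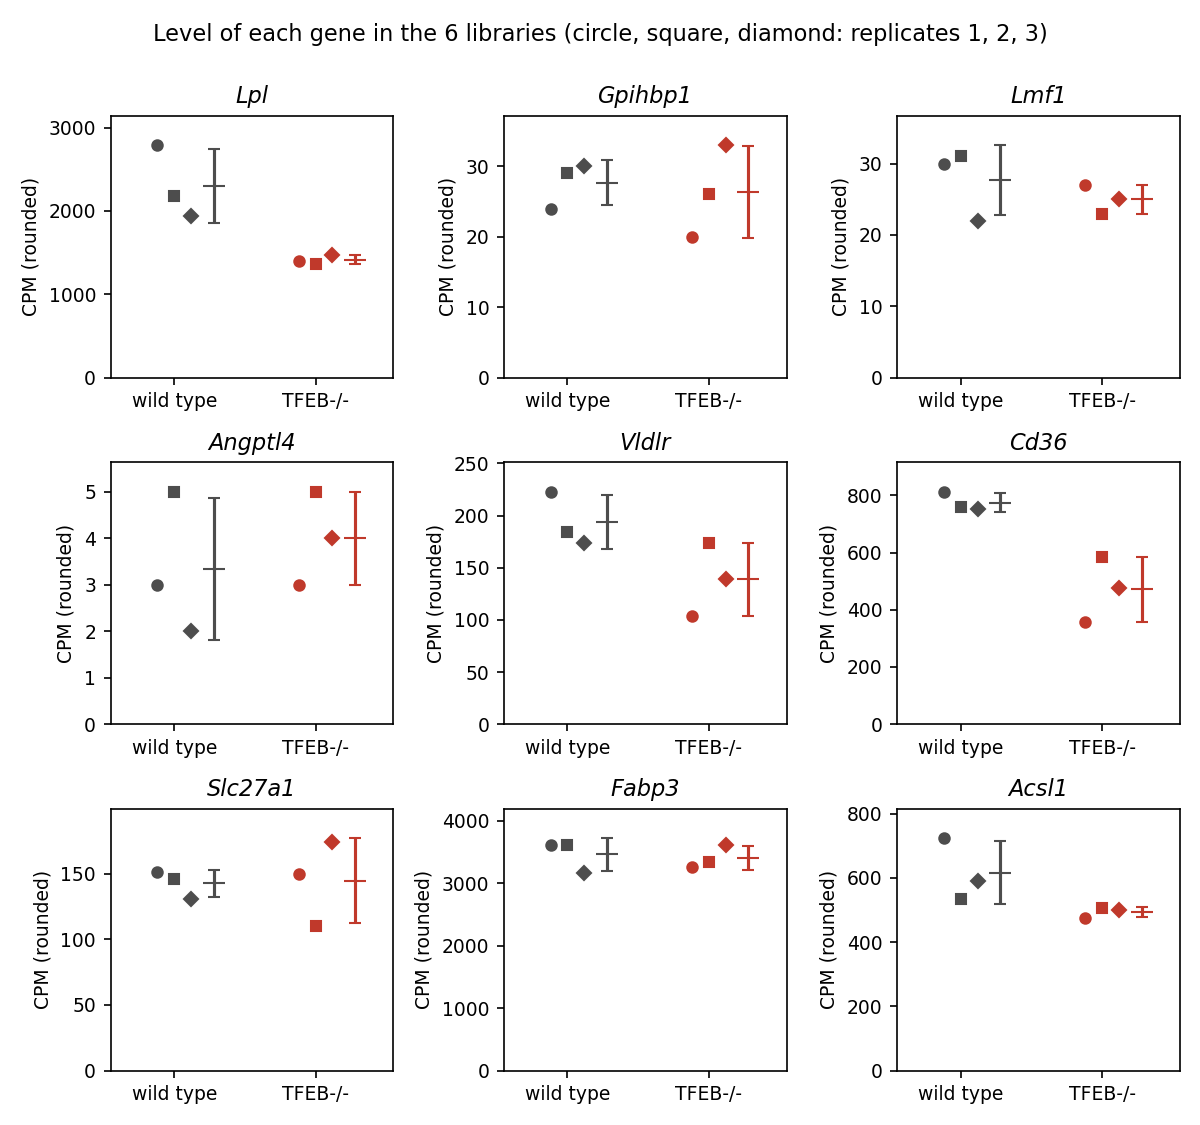
CPM of the 9 genes in each library, rounded as deposited, with wild type in grey and TFEB-/- in red. Symbols mark replicates 1 to 3, and the bar beside each group is its mean ± SD (n = 3). Lpl, Cd36 and Acsl1 show no overlap between the groups, while Vldlr meets at 1 shared value and Fabp3, Slc27a1, Gpihbp1, Lmf1 and Angptl4 overlap.

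Lpl encodes lipoprotein lipase (ENSMUSG00000015568; GRCm38 chromosome 8, 68880491 to 68907448, plus strand). It was at 2791, 2175 and 1934 CPM in wild type, against 1405, 1365 and 1473 CPM in TFEB-/-. The 3 TFEB-/- libraries lay close together and the wild type libraries were spread over a wider range, with wild type 1 the highest. The means were 2300.0 ± 442 and 1414 ± 54.6 CPM (SD, n = 3), a log2 fold change of −0.68 (SE 0.15, 95% interval −1.08 to −0.29, adjusted p = 0.0823 by limma). With median-ratio scaling the values were 2742, 2327 and 2366 in wild type and 1187, 1342 and 1386 in TFEB-/-. The log2 fold change was then −0.92 (SE 0.13, 95% interval −1.22 to −0.63, adjusted p = 0.0138 by limma). Lpl was the 1 gene of the 9 that fell past the threshold on that scale, where 1.61% of all genes were called lower and 3.87% higher. That call had an adjusted p of 0.0518 without TFEB-/- 3 and of 0.0306 to 0.0385 without any other single library. Macrophages also make this enzyme; the macrophage marker sums, given above, were higher in all TFEB-/- libraries, and their part in the Lpl level was not tested.

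None of the partners of the enzyme, Lmf1, Gpihbp1 and Angptl4, passed the adjusted threshold on either scale. Lmf1, the maturation factor of the endoplasmic reticulum (ENSMUSG00000002279; chromosome 17, 25579085 to 25662826, plus strand), measured 30, 31 and 22 CPM in wild type, against 27, 23 and 25 CPM in TFEB-/-. The groups overlapped, with wild type 3 the lowest of the 6, and the log2 fold change was −0.13 (SE 0.16, 95% interval −0.54 to 0.28, adjusted p = 0.628 by limma). With median-ratio scaling the same libraries no longer overlapped (29.5, 33.2 and 26.9 against 22.8, 22.6 and 23.5) and the log2 fold change was −0.37 (unadjusted p = 0.00987, adjusted p = 0.0987 by limma). Gpihbp1, the carrier on capillary endothelial cells (ENSMUSG00000022579; chromosome 15, 75596628 to 75599481, plus strand), measured 24, 29 and 30 CPM in wild type, against 20, 26 and 33 CPM in TFEB-/-. TFEB-/- held both the lowest and the highest value, and the log2 fold change was −0.09 (SE 0.21, 95% interval −0.63 to 0.45, adjusted p = 0.811 by limma). Since cardiomyocytes are not the known source of Gpihbp1, its level was set against the 12 endothelial markers summed in the same library. The ratio was 0.0505, 0.0780 and 0.0739 in wild type and 0.0551, 0.0714 and 0.0764 in TFEB-/-, a mean log2 difference of 0.02 (two-sided exact permutation p = 1). Replicate 1 was the lowest in both groups.

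Angptl4, the secreted inhibitor of the enzyme and a known PPAR target (ENSMUSG00000002289; chromosome 17, 33773750 to 33781830, minus strand), was near the lower limit of the table. It was at 3, 5 and 2 CPM in wild type, against 3, 5 and 4 CPM in TFEB-/-. The groups overlapped, and their means of 3.33 and 4 CPM differed by less than a rounding step. The log2 fold change of 0.28 had a wide interval (SE 0.35, 95% interval −0.61 to 1.18, adjusted p = 0.634 by limma). The Lpl value was 930.3, 435 and 967 times that of Angptl4 in wild type and 468.3, 273 and 368 times in TFEB-/-. The ratios overlapped between groups, with wild type 2 inside the TFEB-/- range, and the mean log2 difference was −1.02 (two-sided exact permutation p = 0.2).

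Vldlr, the receptor that binds triglyceride-rich particles (ENSMUSG00000024924; chromosome 19, 27216484 to 27254231, plus strand), measured 223, 184 and 174 CPM in wild type, against 104, 174 and 139 CPM in TFEB-/-. TFEB-/- 2 equalled wild type 3, and the other two TFEB-/- libraries were below every wild type library. The means were 193.7 ± 25.9 and 139.0 ± 35.0 CPM (SD, n = 3), a log2 fold change of −0.50 (SE 0.22, 95% interval −1.07 to 0.07, adjusted p = 0.254 by limma). With median-ratio scaling the groups no longer overlapped, at 219.1, 196.9 and 212.9 against 87.8, 171.1 and 130.8, and the log2 fold change was −0.74 (SE 0.22, adjusted p = 0.111 by limma).

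Cd36 encodes the scavenger receptor through which much of the fatty acid enters muscle cells (ENSMUSG00000002944; chromosome 5, 17781690 to 17888801, minus strand). It was at 813, 760 and 751 CPM in wild type, against 357, 583 and 475 CPM in TFEB-/-. Here the wild type libraries lay close together and the TFEB-/- libraries were spread, with TFEB-/- 1 the lowest and TFEB-/- 2 nearest to wild type. The means were 774.7 ± 33.5 and 471.7 ± 113 CPM (SD, n = 3), a log2 fold change of −0.74 (SE 0.19, 95% interval −1.24 to −0.24, adjusted p = 0.111 by limma). With median-ratio scaling it was −0.98 (SE 0.22, 95% interval −1.50 to −0.46, adjusted p = 0.0509 by limma), just short of the threshold. Without TFEB-/- 2 it was −1.19 with an adjusted p of 0.0303, without TFEB-/- 1 it was −0.73 with an adjusted p of 0.0777, and without any 1 of the other 4 libraries the adjusted p was 0.105 to 0.154. Removing the mitochondrial transcripts from the library totals instead put Cd36 past the threshold (adjusted p = 0.0481 by limma), as it did Lpl (adjusted p = 0.0121), on a scale where 1.51% of all genes were called lower. Capillary endothelial cells also make CD36. Relative to the summed endothelial markers Cd36 was at 1.71, 2.04 and 1.85 in wild type and at 0.983, 1.60 and 1.10 in TFEB-/-, with no overlap and a mean log2 difference of −0.63 (two-sided exact permutation p = 0.1, the smallest that 3 against 3 libraries allow).

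Slc27a1 encodes the transport protein FATP1, which also has acyl-CoA synthetase activity (ENSMUSG00000031808; chromosome 8, 71568882 to 71587302, plus strand). It was at 151, 146 and 131 CPM in wild type, against 150, 110 and 174 CPM in TFEB-/-. The TFEB-/- libraries lay on both sides of the wild type range, and the log2 fold change was −0.0027 (SE 0.19, 95% interval −0.49 to 0.48, adjusted p = 1 by limma).

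Upstream sequence was looked at for the 6 of the 9 genes (all but Lpl, Gpihbp1 and Angptl4) found in a RefSeq promoter table (GRCm38.p6), 10 windows of 250 bases before to 50 bases after a transcript start. The motifs searched on both strands were CACGTG, the core of the sites that TFEB and related factors bind, and AGGTCA, the core motif of nuclear receptors such as the PPARs, the latter also as a direct repeat with 1 base between (AGGTCANAGGTCA). CACGTG was found in 1 of the 10 windows, at bases −202 to −197 of a Slc27a1 start, against 7.15% of all 32851 windows. AGGTCA was found in 1, on the opposite strand at bases −228 to −223 of the Cd36 start, against 16.3% of all windows, and the repeat in 0, against 0.0396%. The AGGTCA match is contained in the repeat wherever that occurs. A match is a description of these letters and not of a bound site, and its absence says nothing about the factor. Both sequences are printed because they are the windows with a match, 1 at the gene with the largest log2 fold change and 1 at a gene whose groups overlapped. They run 5′ to 3′ in the direction of the gene and end at the base before the start, for Cd36 chr5:17835897-17836146 on the minus strand and for Slc27a1 chr8:71570344-71570593 on the plus strand. Both windows lie in introns of longer transcripts of their genes in GENCODE M21. Capitals mark the match.
Cd36: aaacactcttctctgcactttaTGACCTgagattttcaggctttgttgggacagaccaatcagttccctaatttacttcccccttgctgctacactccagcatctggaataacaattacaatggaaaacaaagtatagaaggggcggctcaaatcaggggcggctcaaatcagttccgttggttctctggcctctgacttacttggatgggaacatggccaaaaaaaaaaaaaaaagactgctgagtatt
Slc27a1: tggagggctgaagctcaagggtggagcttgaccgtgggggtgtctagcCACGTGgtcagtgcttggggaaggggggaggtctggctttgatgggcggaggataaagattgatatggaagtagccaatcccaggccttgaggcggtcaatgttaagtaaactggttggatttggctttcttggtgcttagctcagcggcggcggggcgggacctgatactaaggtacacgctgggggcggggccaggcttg

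Fabp3, the cytosolic fatty acid binding protein of heart muscle (ENSMUSG00000028773; chromosome 4, 130308595 to 130315463, plus strand), was the most abundant of the 9 transcripts. It was at 3607, 3612 and 3159 CPM in wild type, against 3250, 3337 and 3609 CPM in TFEB-/-. The ranges covered nearly the same values, and the log2 fold change was −0.02 with the narrowest interval of the 9 (SE 0.09, 95% interval −0.25 to 0.20, adjusted p = 0.902 by limma). With median-ratio scaling the groups did not overlap (3544, 3865 and 3865 against 2745, 3282 and 3396) and the log2 fold change was −0.26 (SE 0.14, adjusted p = 0.312 by limma).

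Acsl1, the main long-chain acyl-CoA synthetase of the heart (ENSMUSG00000018796; chromosome 8, 46471037 to 46536051, plus strand), measured 724, 535 and 591 CPM in wild type, against 475, 505 and 500 CPM in TFEB-/-. The groups did not overlap, with wild type 2 closest to the TFEB-/- libraries. The means were 616.7 ± 97.1 and 493.3 ± 16.1 CPM (SD, n = 3), a log2 fold change of −0.31 (SE 0.13, 95% interval −0.63 to 0.01, adjusted p = 0.227 by limma). With median-ratio scaling it was −0.55 (SE 0.14, 95% interval −0.87 to −0.23, adjusted p = 0.0645 by limma).

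**Figure D2:**
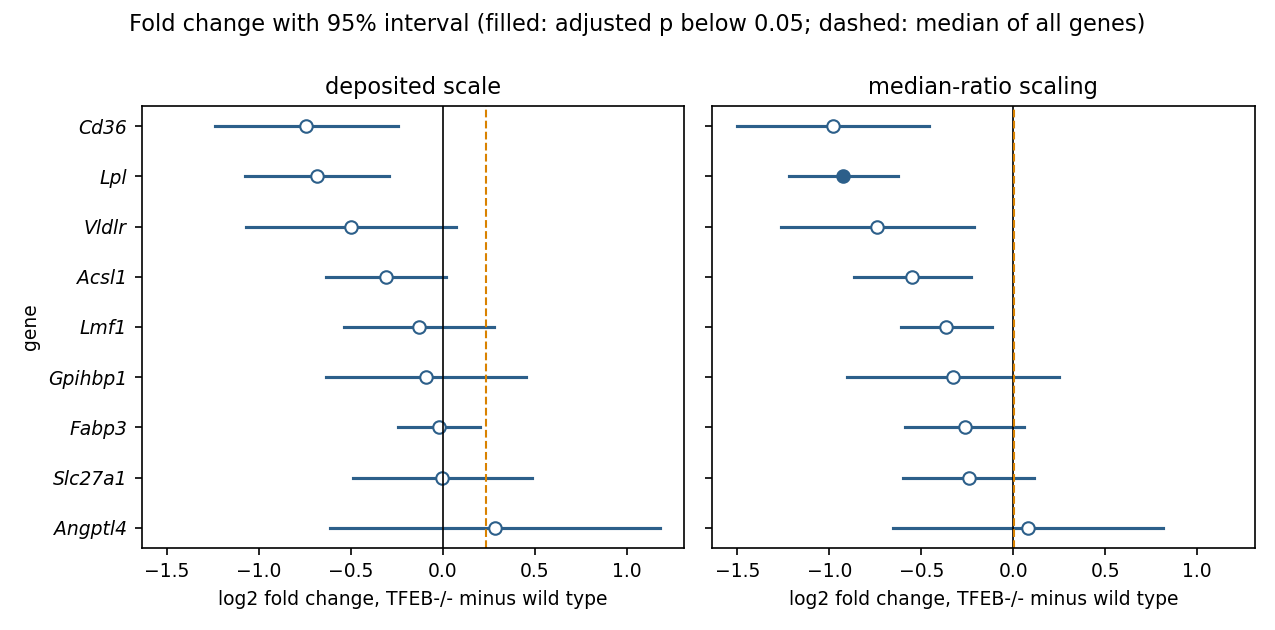
Log2 fold change of each gene, TFEB-/- minus wild type, with its 95% interval from limma, on the deposited scale (left) and with median-ratio scaling (right). The dashed line is the median of all tested genes, 0.24 on the left and 0.0053 on the right, and a filled point marks an adjusted p below 0.05, which Lpl has on the right.

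Relative to the median of all tested genes on the deposited scale, the log2 fold changes were −0.98 for Cd36, −0.92 for Lpl, −0.74 for Vldlr, −0.55 for Acsl1, −0.37 for Lmf1, −0.33 for Gpihbp1, −0.26 for Fabp3, −0.24 for Slc27a1 and 0.05 for Angptl4. Of all tested genes 1.69% had a lower log2 fold change than Cd36 and 1.87% a lower one than Lpl, while 18.8% had a lower one than Fabp3. The order of the 9 log2 fold changes was the same with median-ratio scaling, where the median over the 9 was −0.37 and 8 of the 9 were below 0, against 49.3% of all genes. With median-ratio scaling the groups did not overlap, with TFEB-/- lower, for 6 of the 9 (Cd36, Lpl, Lmf1, Vldlr, Fabp3 and Acsl1), against 11.8% of all genes, and 5 of the 9 had an unadjusted p below 0.05 (the same without Fabp3), against 9.79% of all genes. In the other direction the counts were 0 of the 9, against 14.3% and 12.5% of all genes. Other settings are read in the same way. Lpl and Cd36 were both called lower with a filter of 5 CPM (0.665% of all genes called lower), with robust hyperparameters (0.635%) and with array weights (2.72%). Both were also called lower with median-ratio scaling at a filter of 5 CPM (2.48%), a setting that was not planned beforehand. Lpl alone was called with quantile normalization (1.38%).

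Ratios of 2 genes within a library do not depend on how libraries are scaled. Fabp3 was taken as the partner after its values were seen, as an abundant gene with little difference between the groups on the deposited scale. With median-ratio scaling it was lower in every TFEB-/- library than in any wild type library (log2 fold change −0.26). Lpl and Cd36 were taken as the genes with the largest differences. Their ratios to Fabp3 are therefore a description with no test. Lpl stood at 0.774, 0.602 and 0.612 of Fabp3 in wild type and at 0.432, 0.409 and 0.408 in TFEB-/-. Cd36 stood at 0.225, 0.210 and 0.238 of Fabp3 in wild type and at 0.110, 0.175 and 0.132 in TFEB-/-. Neither ratio overlapped between the groups, with mean log2 differences of −0.66 and −0.72. An adjustment by Benjamini-Hochberg was made over 5 ratios, these 2 included. The exact permutation p of Cd36 to endothelial markers became 0.167, that of Lpl to Angptl4 0.25 and that of Gpihbp1 to endothelial markers 1. Because the 2 Fabp3 ratios were picked by their values, including them makes the adjustment of the others too mild. These adjusted values are therefore not read as support. Vldlr stood at 0.0618, 0.0509 and 0.0551 of Fabp3 in wild type and at 0.0320, 0.0521 and 0.0385 in TFEB-/-, which overlapped through TFEB-/- 2. Cd36 was at 0.291, 0.349 and 0.388 of Lpl in wild type and at 0.254, 0.427 and 0.322 in TFEB-/-, with full overlap. The size of the differences depended on the partner. Relative to the summed cardiomyocyte markers the mean log2 difference was −0.94 for Lpl and −0.99 for Cd36, both without overlap. That of Fabp3 was −0.27, with overlap. These ratios too are a description with no test. The lowest Cd36 and Vldlr values of all were both in TFEB-/- 1, the library with the smallest share of mitochondrial transcripts (22.2%). The highest of the TFEB-/- values of both were in TFEB-/- 2, with the largest share of its group (30.3%). In wild type the order was the reverse. There both genes were highest in wild type 1, with the smallest share of its group (30.7%). Both were lowest in wild type 3, with the largest share (44.6%). A link was not tested.

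**Figure D3:**
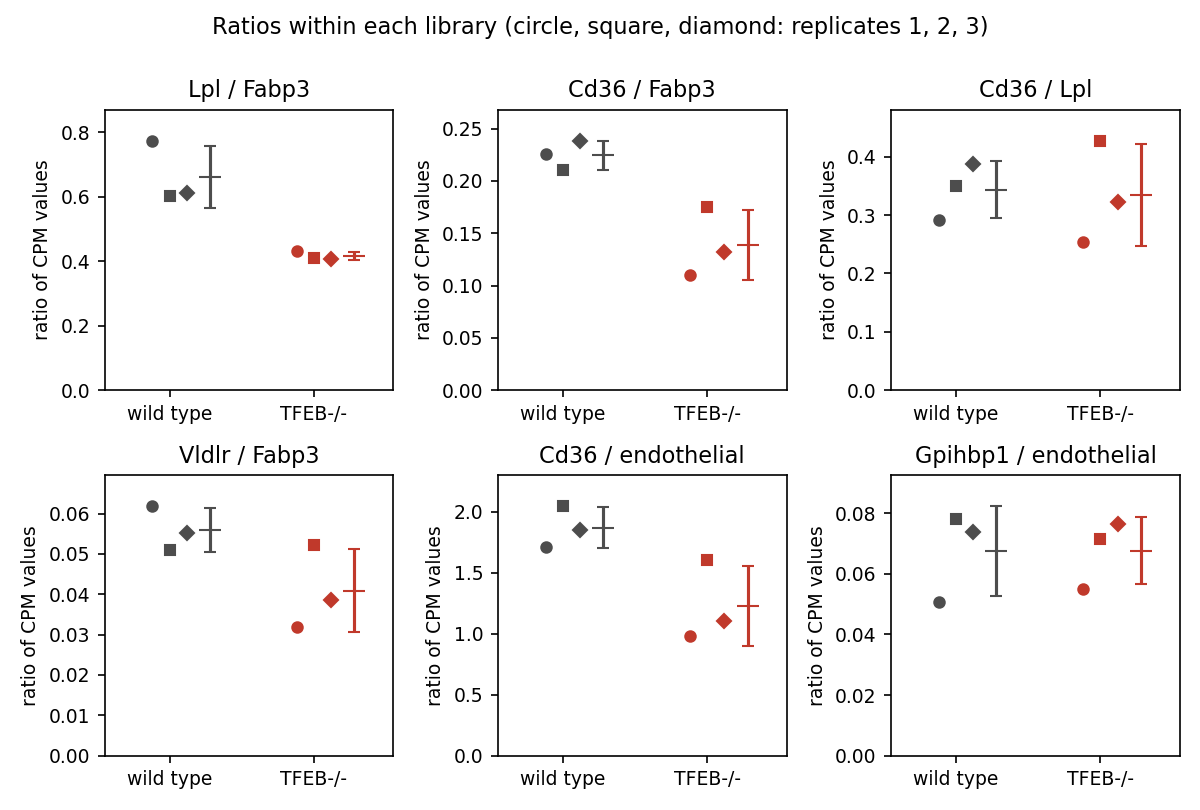
Ratios of CPM values within each library, wild type in grey and TFEB-/- in red, with symbols for replicates 1 to 3 and bars for the mean ± SD (n = 3). Endothelial stands for the sum of 12 endothelial markers. Lpl and Cd36 relative to Fabp3, and Cd36 relative to endothelial markers, separate the groups, while Vldlr relative to Fabp3, Cd36 relative to Lpl and Gpihbp1 relative to endothelial markers overlap.

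Together the 9 transcripts summed to 8366, 7477 and 6794 CPM in wild type and to 5791, 6128 and 6432 CPM in TFEB-/-. The sums did not overlap, and Fabp3 made up 43.1 to 48.3% of them in wild type and 54.5 to 56.1% in TFEB-/-. To compare genes with each other, CPM was divided by the length of the principal transcript in GENCODE M21, on the assumption, not stated in the sources used here, that the deposited values are not yet scaled by length. In wild type Fabp3 led at 4203 ± 316 CPM per kilobase (SD, n = 3), followed by Lpl at 558.9 ± 107, Cd36 at 227.9 ± 9.86 and Acsl1 at 158.2 ± 24.9. Slc27a1 (51.0 ± 3.72), Gpihbp1 (33.5 ± 3.90), Vldlr (24.3 ± 3.25) and Lmf1 (14.9 ± 2.65) came next, and Angptl4 was last at 1.01 ± 0.462 CPM per kilobase. No neighbours in this order had overlapping mean ± SD ranges in wild type. The order was the same in TFEB-/-, but there Cd36 (138.8 ± 33.3) and Acsl1 (126.6 ± 4.12) did not differ beyond their spread, nor did Vldlr (17.4 ± 4.39) and Lmf1 (13.5 ± 1.08).

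Other genes of the pathway were taken from 6 lists. In fatty acid transport, activation and binding, 13 of 27 listed genes could be tested. Limma called 0 of them higher and 0 lower, against 3.92% and 0.523% of all genes. None had an unadjusted p below 0.05, against 21.1% of all genes higher and 2.3% lower. Their median log2 fold change was 0.02, against 0.24 over all genes. Fabp4, a binding protein of endothelial cells and adipocytes, was at 147, 169 and 176 CPM in wild type, against 112, 162 and 175 CPM in TFEB-/-. Got2, a mitochondrial aminotransferase also found at the cell surface as a fatty acid binding protein, was at 1081, 1046 and 825 CPM and at 1084, 884 and 1011 CPM. Both overlapped between the groups. In the carnitine shuttle with its malonyl-CoA control, the next step on the way to the mitochondrion, 10 of 10 were tested. Limma called 0 higher and 0 lower, against the same shares of all genes, and the median was 0.0087. At an unadjusted p below 0.05, 0 were higher and 1 was lower, against 21.1% and 2.3% of all genes. That 1 gene, Mlycd, the malonyl-CoA decarboxylase, named after its values were seen, had 112, 109 and 98 CPM in wild type, against 73, 81 and 84 CPM in TFEB-/- (adjusted p = 0.0698, and 0.0246 with median-ratio scaling, by limma). On that scale 1.61% of all genes were called lower. The Mlycd call there held in 2 of 6 fits with a library left out (without TFEB-/- 1 or TFEB-/- 2, adjusted p up to 0.0972). Cpt1b, the muscle carnitine palmitoyltransferase, was at 680, 654 and 582 CPM in wild type, against 655, 562 and 664 CPM in TFEB-/-, and Crat, carnitine acetyltransferase, was at 665, 638 and 520 and at 621, 570 and 631 CPM.

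The list of proteins that mature, anchor or regulate lipoprotein lipase, and of related lipases and apolipoproteins, had a median above that of all genes. Of 21 genes 11 were tested, 1 was higher and 0 lower by limma, 5 were higher and 0 lower at an unadjusted p below 0.05, and the median log2 fold change was 0.49. Over all genes 3.92% were called higher, 21.1% were higher at an unadjusted p below 0.05, and the median was 0.24. Sdc4, a heparan sulfate proteoglycan of the cell surface, rose from 20, 15 and 16 CPM in wild type to 48, 64 and 53 CPM in TFEB-/- (limma log2 fold change 1.67 with SE 0.16, adjusted p = 0.0101), and the log2 fold change was 1.43 with median-ratio scaling (adjusted p = 0.0101). On the deposited scale the call was lost without wild type 3 (adjusted p = 0.0585) or without TFEB-/- 3 (0.0539), and with median-ratio scaling it passed without any 1 library. With median-ratio scaling 3 of the 11 were higher, against 3.87% of all genes: Sdc4 and 2 genes named after their values were seen. Apoe, an apolipoprotein also made by macrophages, rose from 28, 34 and 35 CPM to 91, 60 and 116 CPM (adjusted p = 0.0403 on that scale and 0.0621 on the deposited one, by limma). Sort1, a sorting receptor of the Golgi, rose from 33, 23 and 18 CPM to 60, 48 and 43 CPM (adjusted p = 0.0334 and 0.105). On that scale Apoe passed in 1 of 6 fits with a library left out (without TFEB-/- 2) and Sort1 in 1 of 6 (without wild type 1), with adjusted p-values up to 0.137 for both. The macrophage marker sums were higher in the same libraries, and their part in Apoe was not tested. Of 15 lipoprotein receptors and their regulators 12 were tested and 0 were called by limma, with 4 higher and 0 lower at an unadjusted p below 0.05, where 21.1% of all genes were higher, and a median of 0.38. Scarb2 was at 129, 119 and 101 CPM in wild type, against 102, 123 and 116 CPM in TFEB-/-, while Lrp10 was at 64, 73 and 53 and at 113, 78 and 92 CPM without overlap (adjusted p = 0.172 by limma).

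**Figure D4:**
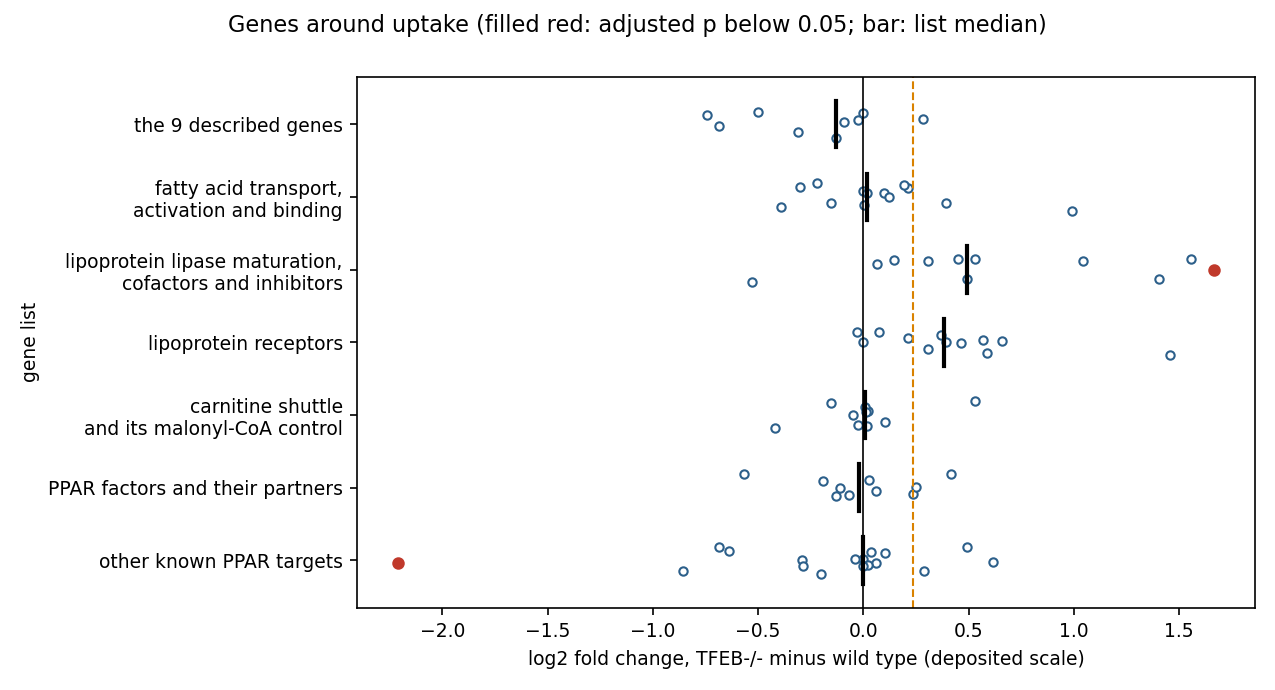
Log2 fold change, TFEB-/- minus wild type on the deposited scale, of the 9 genes and of the tested genes of each list, 1 point per gene, spread vertically for legibility. Black bars are list medians, the dashed line is the median of all tested genes (0.24), and filled red points have an adjusted p below 0.05 (Sdc4 and Acot1).

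Several of the 9 genes are known targets of the PPARs, and whether target status goes with the fold change among the 9 was not tested. Of 10 PPAR factors and partners 10 were tested and limma called 0 higher and 0 lower, against 3.92% and 0.523% of all genes. At an unadjusted p below 0.05, 0 were higher and 1 was lower, against 21.1% and 2.3% of all genes. The median log2 fold change was −0.02, against 0.24 over all genes. Rxra, the common partner of the PPARs, was at 72, 67 and 60 CPM in wild type, against 77, 62 and 64 CPM in TFEB-/-, and Rxrg, another retinoid X receptor, had 73, 71 and 47 CPM, against 66, 53 and 55 CPM (adjusted p = 0.756 by limma). The coactivator Ppargc1a was at 29, 41 and 27 CPM in wild type, against 20, 21 and 23 CPM in TFEB-/-. With median-ratio scaling it was the 1 member called lower (adjusted p = 0.0457 by limma), where 1.61% of all genes were called lower. It was named after its values were seen, and passed in 1 of 6 fits with a library left out (without wild type 1, adjusted p up to 0.159). Of 20 other PPAR targets 17 were tested, and limma called 0 higher and 1 lower, against 3.92% and 0.523% of all genes. The 1 lower was the thioesterase Acot1, which fell from 11, 9 and 8 CPM to 1, 2 and 2 CPM (limma log2 fold change −2.21 with SE 0.25, adjusted p = 0.0182). Leaving out TFEB-/- 3 or any 1 of the wild type libraries ended that call (adjusted p of 0.0549 to 0.077), and with median-ratio scaling it passed without any 1 library. At an unadjusted p below 0.05, 2 of the list were higher and 4 lower, Acot1 included, against 21.1% and 2.3% of all genes. Of these only Acot1 passed the adjusted threshold, and the list median was −0.0034, against 0.24 over all genes. The 2 higher were Plin2 and Cidea, named after their values were seen. Plin2 was at 45, 38 and 37 CPM in wild type, against 57, 55 and 57 CPM in TFEB-/-. Cidea was at 21, 23 and 20 CPM in wild type, against 28, 31 and 41 CPM in TFEB-/-. With median-ratio scaling 3 of the 17 were called lower and 0 higher, against 1.61% and 3.87% of all genes. The 3 were Acot1, its relative Acot2 (57, 52 and 59 against 30, 38 and 40 CPM) and the lipid droplet protein Plin5 (130, 134 and 112 against 99, 103 and 105 CPM). The last 2 were named after their values were seen. On that scale Acot2 and Plin5 each passed in 1 of 6 fits with a library left out, in both cases without TFEB-/- 2.

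By the root mean square difference between log2 profiles over the 6 libraries, each centred on its own mean, the genes most like Cd36 among 2019 with a mean of at least 50 CPM were Psme4 (0.0995), Ptp4a1 (0.136) and Vldlr (0.142). Psme4, which encodes a proteasome activator, was at 220, 224 and 199 CPM in wild type, against 92, 145 and 112 CPM in TFEB-/-, with the same order of TFEB-/- libraries as Cd36. The genes most like Lpl were Grb14 (0.0670), Ipo13 (0.113) and Enah (0.117). Grb14, an adaptor that binds the insulin receptor, was at 199, 168 and 152 CPM in wild type, against 111, 99 and 104 CPM in TFEB-/- (adjusted p = 0.0470 by limma), a call lost whichever library was left out (0.0526 to 0.157) and kept in all 6 such fits with median-ratio scaling (0.0133 to 0.0249). For Angptl4 they were Dirc2 (0.154), Cops8 (0.228) and Ndufb4 (0.228), but with whole values from 2 to 5 CPM its profile is set largely by rounding, and nothing is read from this order. The likeness is a description over 6 libraries that share these genotypes. The profiles hold the difference between the genotypes, so the genes nearest to Cd36 and Lpl were picked in part for being lower in TFEB-/-. Their lower values, the library order of Psme4 and the Grb14 call follow in part from that choice and are not read as support.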

How the data were processed

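Poly(A) RNA libraries (TruSeq Stranded mRNA, per the labels' protocols) of 3 wild type and 3 TFEB-/- cardiomyocyte samples were analysed from 1 deposited table. Its values, as deposited by the authors, are a score taken to be CPM made with kallisto, per the name of the table. All values deposited by the authors are whole numbers and each library sums to just under the CPM total, so they were read as rounded CPM. That total alone cannot tell CPM from values also scaled by length. Besides kallisto and the GRCm38 build, several other aligners and counters appear in the submitters' processing notes, without roles; scaling between libraries or by length is not given in the sources used here. Read depth is unknown, so no count model was used.

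Of 46517 entries, 26 names turned into dates were restored by ID, 303 missing names were replaced by IDs, and entries sharing a symbol were summed (67 beyond the first). Tests took genes that reached 1 CPM in 3 or more libraries and used limma 3.58.1 under R 4.3.3 on log2(CPM + 0.5), with genotype as the only term, eBayes with a trend, and Benjamini-Hochberg adjustment over all 12437 genes (threshold 0.05). Fold changes are on the log2(CPM + 0.5) scale, two-sided. The fit was tested on simulated data. Alternatives were other pseudocounts, filters, scalings, weights, a replicate block and leaving out each library.

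The 9 genes and the lists were chosen with earlier results of these data known. Named genes are the 9, Tfeb, up to 2 higher and 2 lower genes of each list past the threshold (otherwise the 2 most abundant), and the 3 profiles nearest to Cd36, Lpl and Angptl4. Mlycd, Apoe, Sort1, Ppargc1a, Acot2, Plin5, Plin2, Cidea and Acta2 fall outside this rule and were named after their values were seen. From the lists 2 genes were left out of all counts and are not reported here.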

Additional observations from a re-analysis of the deposited data

How the results depend on the processing

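Over 18 alternatives Lpl and Cd36 were lower in TFEB-/- in all 18, with log2 fold changes of −0.96 to −0.54 and −0.98 to −0.56. Their adjusted p-values by limma ran from 0.00687 to 0.232 and from 0.0254 to 0.271, past the threshold in 8 and 5 alternatives. Median-ratio scaling combined with a filter of 5 CPM or with a replicate block was not planned beforehand. Both combinations are among the 8 for Lpl, and the one with the filter is among the 5 for Cd36. Against 0 on the deposited scale, the count of the 9 genes called lower was 2 with a filter of 5 CPM, without mitochondrial transcripts, with robust hyperparameters, with array weights and with median-ratio scaling at a filter of 5 CPM, and 1 with median-ratio scaling or quantile normalization. A fit blocked on replicate number gave 0 (0 higher as well, with 2 residual degrees of freedom) and 1 when median-ratio scaling was added. Without any 1 library it was 0 on the deposited scale, and with median-ratio scaling, added after seeing the data, it was 0 (without TFEB-/- 3) to 3 (without TFEB-/- 2), and 2 without wild type 2.

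The median over the 9 genes, −0.13, was −0.22 with a filter of 5 CPM, which drops Angptl4, −0.37 with median-ratio scaling, alike with the block, −0.35 without mitochondrial transcripts, −0.38 with quantile normalization, −0.46 with median-ratio scaling and a filter of 5 CPM, and −0.28 (without wild type 3) to −0.056 (without wild type 2) without any 1 library; it was −0.27 without TFEB-/- 3.

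Over all genes, 487 were higher and 65 lower. The higher count was 159 with the block, 780 with robust hyperparameters, 2241 with array weights, 256 with median-ratio scaling and the block, and 248 to 516 without any 1 library. The lower count was 200 with median-ratio scaling, 188 without mitochondrial transcripts, 172 with quantile normalization, 26 with the block, 338 with array weights, 220 with median-ratio scaling and a filter of 5 CPM, and 121 with median-ratio scaling and the block.

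Genes near 0 changed sign: Gpihbp1 was 0.081 with array weights and 0.088 without TFEB-/- 1 (−0.27 to 0.088 over libraries left out), Angptl4 −0.10 with array weights, Fabp3 −0.088 to 0.0084 and Slc27a1 −0.15 to 0.18 without any 1 library, and Slc27a1 0.14 with array weights. With median-ratio scaling Angptl4 ran from −0.12 to 0.37 without any 1 library. The log2 ratio of Gpihbp1 to endothelial markers ran from −0.18 to 0.16. The cause of these changes was not tested.

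Over the 18 alternatives the lists held 0 to 5 higher and 0 lower genes for lipase maturation, 0 to 5 higher for the receptors, 0 to 1 lower for the carnitine shuttle and for PPAR factors, and 0 to 2 higher and 0 to 4 lower for PPAR targets, with 0 for fatty acid transport.

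The replicate numbers are shared between the groups but nothing says that they pair samples: deviations of same-numbered libraries correlated at 0.198, −0.0355 and 0.208 across 8585 genes, and wild type 2 correlated best with TFEB-/- 3. With the block on the deposited scale the adjusted p was 0.112 for Tfeb, 0.0991 for Sdc4, 0.109 for Acot1 and 0.0981 for Grb14, and each passed with the block and median-ratio scaling. Rounding to whole CPM limits Angptl4, and also Acot1, which was at 1, 2 and 2 CPM in TFEB-/-. The Acot1 log2 fold change was −1.97 with a pseudocount of 1 and −2.47 with a pseudocount of 0.1. Unknown depth leaves the counting error of both genes unknown.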
